A study of Mus musculus with 16 samples.

Results

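The 5' fragments of tRNA-His-GTG, the transfer RNA that carries histidine, were measured in 8 small RNA libraries of mouse cauda epididymal sperm. The fragments were chosen by sequence: reads of 18 to 44 nt that start at base 1, 2 or 3 of the tRNA, or with 1 extra base before base 1, here called position -1, and that differ from it by at most 1 substitution. In all, 727856 of 103084122 sperm reads qualified, as 2682 of 4230643 distinct sequences. Between 51.3% and 73.1% of these reads in a library began with an extra base, most often G, while 4 other tRNAs showed one in at most 0.152% of fragments.

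Sperm came from Dnmt2-/- mice on a high-fat diet (HFD), Dnmt2+/+ mice on HFD, Dnmt2-/- mice on a normal diet (ND) and Dnmt2+/+ mice on ND, with 2 libraries in each group. Dnmt2, also called Trdmt1, is a tRNA cytosine methyltransferase, and the knockout allele (Dnmt2tm1Bes) had been backcrossed onto C57BL/6NCrl. The males were bought at 6 weeks of age, and the labels used here give no age at sperm collection, no duration of the diet and no number of animals per library. Total RNA went into TruSeq small RNA libraries, and the question behind the comparisons was how diet and Dnmt2 bear on paternal sperm small RNA. The labels do not state that replicates were separate animals, so the p-values given here reflect only how far libraries lie apart, and that spread may be technical.

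Histidine tRNA is set apart from other tRNAs by an extra guanosine at its 5' end. In eukaryotic cytosol the enzyme THG1 (THG1L in mammals) adds this G after the tRNA has been trimmed, and the histidyl-tRNA synthetase reads it as an identity mark. Mature sperm carry many 5' fragments of tRNAs, formed by cleavage in or near the anticodon loop, and part of this small RNA is taken up during passage through the epididymis. The classical Dnmt2 substrates are the tRNAs for aspartate, glycine and valine, and tRNA-His is not among them.

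The RefSeq annotation of GRCm38.p6 lists 10 genes of this tRNA, each 72 bp long, with 3 on chromosome 2, 6 on chromosome 3 and 1 on chromosome 4. Bases 1 to 62 of the gene n-THgtg7 (chr3:96452495-96452566, plus strand) lie within the RefSeq promoter window of the neighbouring gene BC107364 and served as the match sequence. Its first 44 bases, the longest stretch a read could cover, are shown with the GTG anticodon at bases 34 to 36 in capitals, followed by the end of the genomic leader and first bases of the same gene with the genomic base at -1 in capitals. The leader sequence is shown because the base the genome holds at -1 is C in this gene, whereas the reads carried mostly G. The leaders of the other 9 genes were not used here.
tRNA bases 1 to 44: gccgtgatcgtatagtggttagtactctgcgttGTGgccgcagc
leader and first bases of n-THgtg7: gcgtggctcCgccgtgatcgtatagtggtt

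Fragments of the same tRNA that all end at base 34, the first anticodon base, show the change at the 5' end, with the base at -1 in capitals. The form with G averaged 485 CPM (counts per 1000000 reads of the library) over the 8 libraries. The form with T averaged 94.3 CPM and the form with A 23.6 CPM.
G at -1, ends at base 34: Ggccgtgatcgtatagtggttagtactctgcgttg
T at -1, ends at base 34: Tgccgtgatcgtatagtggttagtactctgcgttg
A at -1, ends at base 34: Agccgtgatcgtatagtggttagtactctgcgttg

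Depth was 10165031 to 19030258 reads per library. The 8 libraries fell into 3 sequencing sets by the errors of abundant reads of all kinds, which the labels do not name. In set A (Dnmt2-/- ND replicates 1 and 2 and Dnmt2+/+ ND replicate 1) the median rate of T for G at read base 29 was 379 to 479 per 10000, against at most 3.90 in the other libraries. In set B (Dnmt2-/- HFD replicate 1 and both Dnmt2+/+ HFD libraries) G replaced C at read base 26 at 9.24 to 9.46 per 10000, against at most 0.566 elsewhere. Set C held Dnmt2-/- HFD replicate 2 and Dnmt2+/+ ND replicate 2. Every library of set A was from ND males and every library of set B from HFD males, so diet and set can be separated only within set C, where the pair also differs in genotype. Small RNA reads do not measure Dnmt2 mRNA, so the genotype labels were not checked. Of 5 listed microRNAs of the germline, 4 had a sequence to match, and their sum was 295 to 1493 CPM. Most of it was miR-881-3p, at 270 to 1398 CPM. miR-871-3p reached at most 93.96 CPM, miR-743a-3p 21.6 CPM and miR-449a-5p 4.76 CPM. miR-743a-3p and miR-449a-5p were lowest in the libraries of set A, which included the 2 highest values of miR-881-3p. The 5 listed microRNAs of the epididymal epithelium had a sum of 190 to 412 CPM in set A, of 3035 to 3987 CPM in set B, and of 608 (HFD) and 1914 (ND) CPM in set C. Of 5 listed blood microRNAs, 3 had a sequence to match, and their sum was 0.455 to 3.66 CPM. Of 3 listed muscle microRNAs only miR-206 could be matched. It reached 64.7 to 75.3 CPM in set B but no more than 0.676 CPM elsewhere. The 1 listed liver microRNA had no sequence to match. In bulk sperm RNA, fewer cells of a type and less RNA per cell cannot be told apart.

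The extra base at -1 was a property of tRNA-His-GTG among the 5 tRNAs compared. Over the first 18 bases without a substitution, 69.3% ± 6.99 (SD, n = 8) of 5' tRNA-His-GTG fragments had an extra base before base 1. The share was 54.8% and 77.4% in Dnmt2-/- HFD, 71.4% and 66.7% in Dnmt2+/+ HFD, 74.0% and 67.9% in Dnmt2-/- ND, and 74.6% and 67.3% in Dnmt2+/+ ND. Dnmt2-/- HFD held both the lowest and the highest library, and every library was above 50.9% by the lower bound of its 95% Wilson interval under the wider match rule with 1 substitution. Counted the same way, at starts -1 or 1, the comparison tRNAs had 27401927 fragments for tRNA-Glu-CTC, 15074832 for tRNA-Gly-GCC, 797701 for valine and 161400 for tRNA-Lys-CTT over the 8 libraries.

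The same measure was 0.0357% ± 0.00549 for tRNA-Glu-CTC, 0.0341% ± 0.0158 for tRNA-Gly-GCC, 0.0396% ± 0.0260 for the valine tRNAs AAC and CAC as 1 group, and 0.0817% ± 0.0647 for tRNA-Lys-CTT (SD, n = 8 each). The differences, tRNA-His-GTG minus each of these, were 69.2 percentage points in all 4 comparisons. tRNA-His-GTG was higher in 8 of 8 libraries each time (exact sign-flip permutation test over libraries, two-sided p = 0.0078125, the smallest it can give; Benjamini-Hochberg adjusted over the 4 comparisons, 0.0078125). The highest value of any comparison tRNA in any library was 0.152%, for tRNA-Lys-CTT in Dnmt2+/+ HFD replicate 1. For tRNA-Lys-CTT in Dnmt2-/- ND replicate 2 and Dnmt2+/+ ND replicate 1, no fragment with an extra base was counted among 7345 and 10491 fragments, which allows a share of up to 0.0408% and 0.0286%. Intervals and limits cover counting error only.

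**Figure D1:**
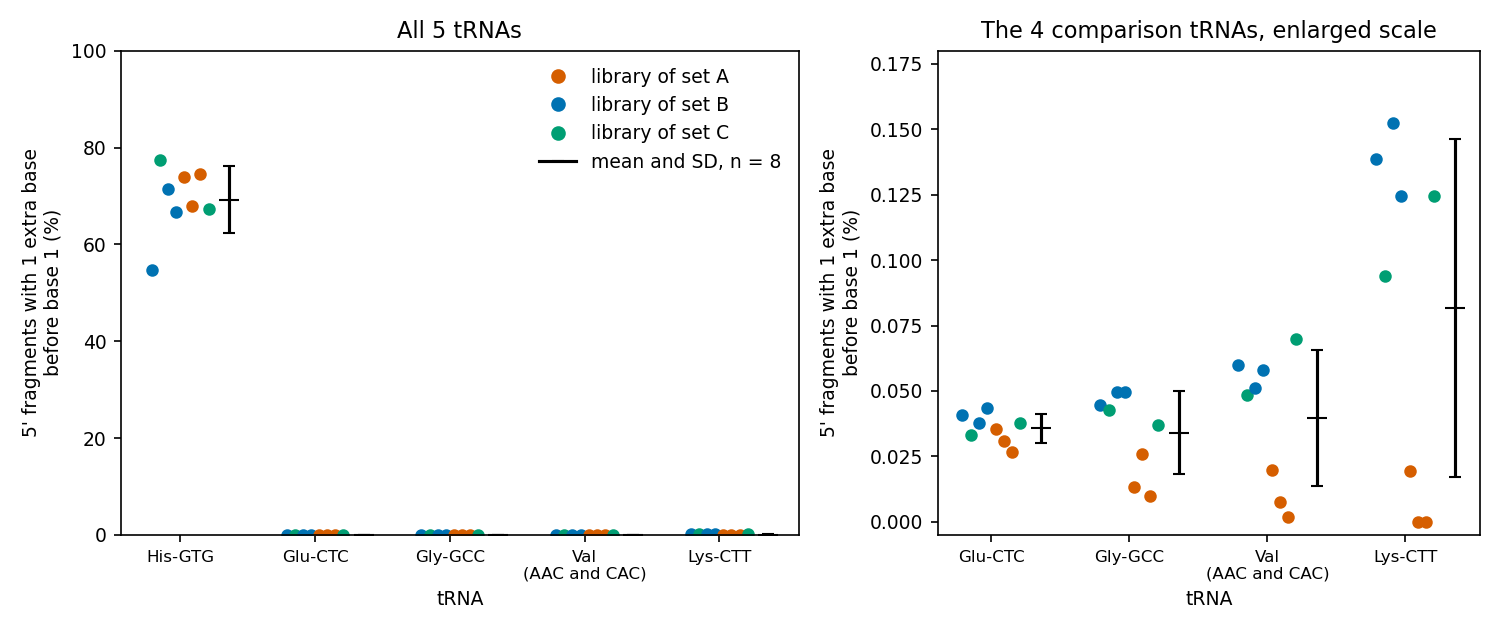
Share of 5' fragments with 1 extra base before base 1 (%), for 5 tRNAs on the left and for the 4 comparison tRNAs on an enlarged scale on the right. Each point is 1 of 8 sperm libraries coloured by sequencing set, and black bars are the mean and SD; tRNA-His-GTG lies between 54.8% and 77.4%, and no other tRNA exceeds 0.152%.

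The extra base itself was tallied as well. Among tRNA-His-GTG fragments over the same 18 bases, G made up 77.3% to 89.2% of extra bases. Among the few tRNA-Glu-CTC fragments with an extra base, C was the most frequent in every library, at 84.1% to 90.5%, and G made up at most 0.474%. tRNA-Gly-GCC was mixed: G made up 15.1% to 35.1% of its extra bases in the 5 libraries of sets B and C, and with 35.8% to 68.96% it was the most frequent base in the 3 libraries of set A. These differences in base were not tested.

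In fragments that match from base 1 to their end, G was the most frequent base at -1 in all 8 libraries. The share of G was 86.9% and 84.8% in Dnmt2-/- HFD, 79.9% and 80.9% in Dnmt2+/+ HFD, 78.6% and 85.2% in Dnmt2-/- ND, and 87.5% and 77.3% in Dnmt2+/+ ND. T came next in every library, at 9.43% to 18.1%, followed by A at 2.51% to 4.39%. C, the genomic base at -1 of n-THgtg7, was the rarest, at 0.115% to 0.271%. The genotypes overlapped: G averaged 83.9% ± 3.65 in Dnmt2-/- and 81.4% ± 4.32 in Dnmt2+/+ libraries (SD, n = 4 each), a difference of 2.49 points (exact permutation test, two-sided p = 0.429, adjusted over 8 tests 0.947). The diets overlapped too, with 83.1% ± 3.29 in HFD and 82.1% ± 4.96 in ND libraries (SD, n = 4 each), a difference of 0.98 points that turned to -0.698 when read bases 29 and 30 were ignored in matching (exact permutation test, two-sided p = 0.714, adjusted 0.947; with those bases ignored, 0.771 and 0.943). Within sets, the genotype difference in G was -5.54 points in set A and 6.51 points in set B, and the diet difference was 7.47 points in set C. Such an exact permutation test of 4 libraries against 4 cannot go below p = 0.0286.

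**Figure D2:**
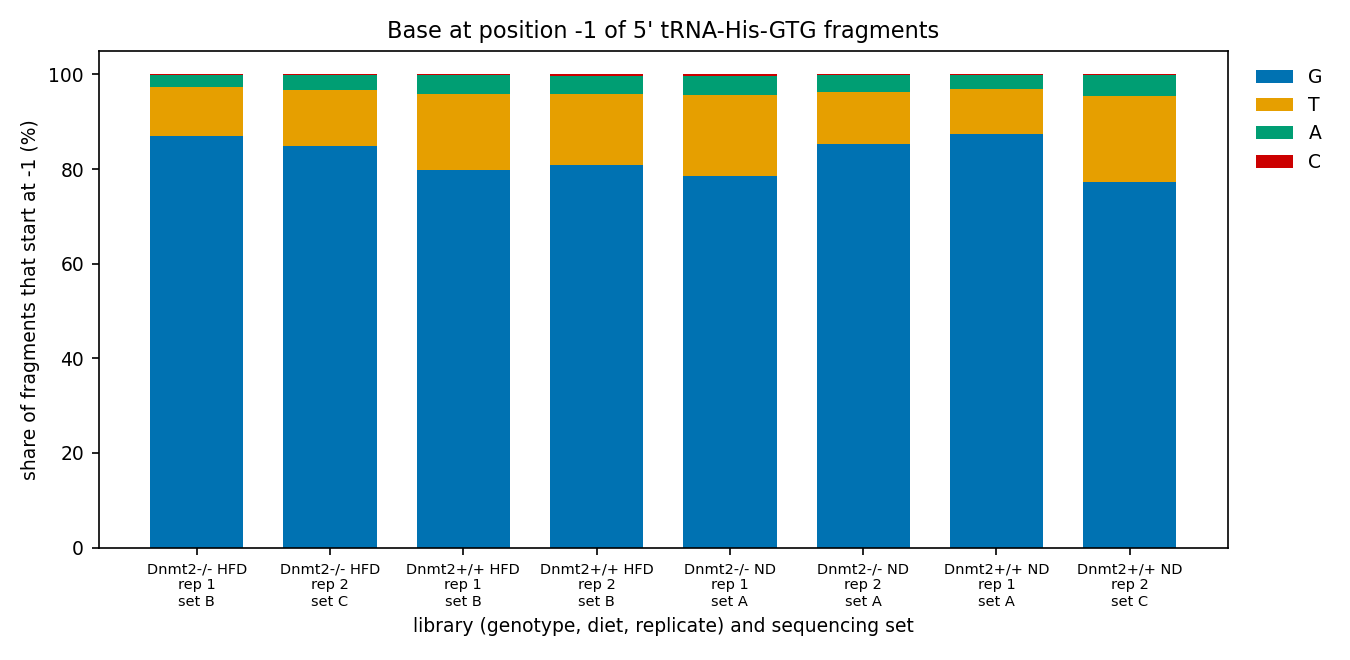
Base at position -1 as a share (%) of fragments that start there and match the tRNA from base 1 on, stacked for each of 8 libraries, with genotype, diet, replicate and sequencing set on the horizontal axis. G is the largest segment in all 8 libraries, at 77.3% to 87.5%, and C, at most 0.271%, is too thin to see.

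The level of all 5' tRNA-His-GTG fragments varied between replicates as much as between groups. It was 8990 and 4919 CPM in Dnmt2-/- HFD, 4831 and 6032 CPM in Dnmt2+/+ HFD, 4056 and 9323 CPM in Dnmt2-/- ND, and 11259 and 5009 CPM in Dnmt2+/+ ND. These values rest on 49742 to 214270 reads per library. The highest library was Dnmt2+/+ ND replicate 1 and the lowest Dnmt2-/- ND replicate 1, both of set A, and the 4 groups overlapped. With read bases 29 and 30 ignored, as described below for set A, the levels of that set became 4867 and 10651 CPM in Dnmt2-/- ND and 12812 CPM in Dnmt2+/+ ND replicate 1.

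Most fragments started at -1 or at base 1. Starts at -1 made up 51.3% and 73.1% in Dnmt2-/- HFD, 67.0% and 63.0% in Dnmt2+/+ HFD, 68.6% and 63.2% in Dnmt2-/- ND, and 70.5% and 62.9% in Dnmt2+/+ ND. Dnmt2-/- HFD replicate 1 stood lowest and had the highest share of starts at base 1, 44.1%. Starts at base 2 made up 2.0% to 3.65% and starts at base 3 made up 1.0% to 2.98%.

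**Figure D3:**
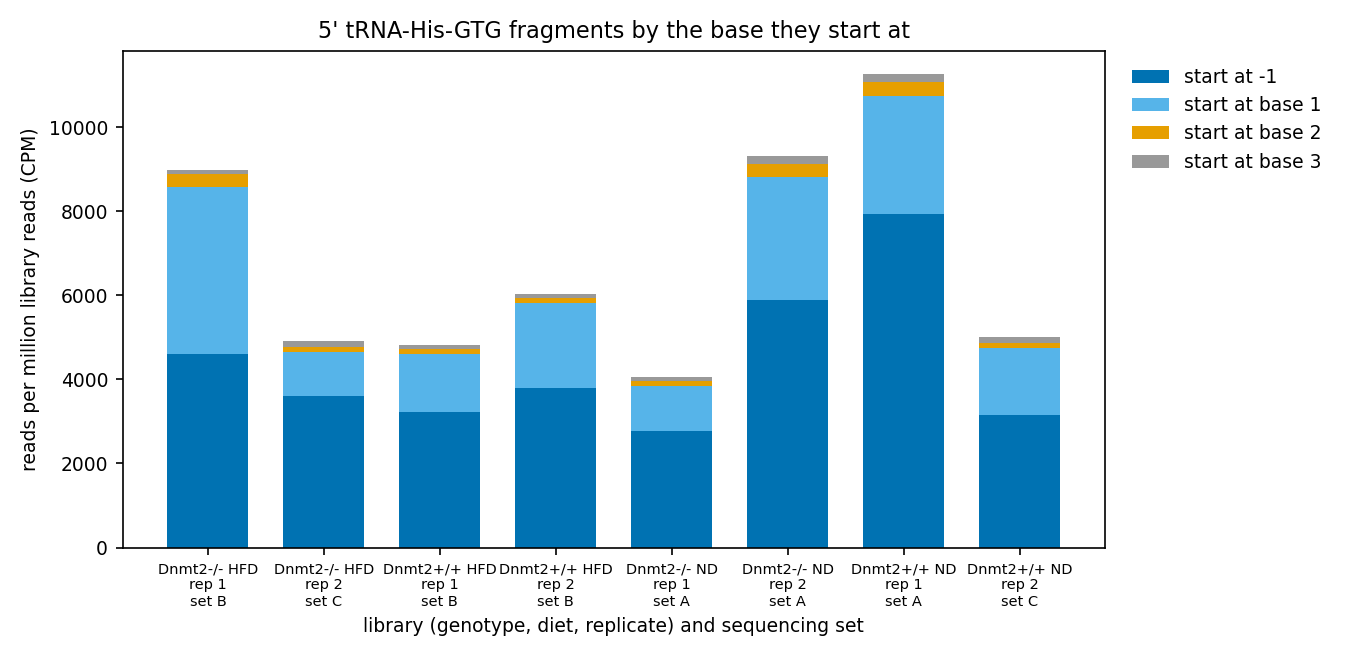
Level of 5' tRNA-His-GTG fragments (CPM, bars from 0) in each of 8 libraries, split by the base at which fragments start; the horizontal axis gives genotype, diet, replicate and sequencing set. Total height runs between 4056 and 11259 CPM, and the segment that starts at -1 is the largest in every library.

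No comparison of the level passed the test. In one fit over all reads, with tRNA-His-GTG as 1 of 30402 features and TMM scaling, the log2 fold change for HFD against ND was -0.22 ± 0.73 (SE) in Dnmt2-/- and -1.18 ± 0.74 in Dnmt2+/+ sperm (edgeR quasi-likelihood test, adjusted p = 0.972 and 0.641). For Dnmt2-/- against Dnmt2+/+ it was 0.77 ± 0.73 on HFD and -0.18 ± 0.73 on ND (edgeR, adjusted p = 1 for both). The difference between the diet effects of the genotypes, Dnmt2-/- minus Dnmt2+/+, was 0.96 ± 1.03 (edgeR, adjusted p = 1.0). With the sequencing set as a term it was 2.11, with a 95% interval from 0.13 to 4.08, and did not pass either (edgeR, adjusted p = 1.0). The 95% interval for Dnmt2+/+ sperm on HFD against ND ran from -2.83 to 0.48 and includes 0. The decrease in Dnmt2+/+ sperm rested on Dnmt2+/+ ND replicate 1: without that library the fold change was 0.05. The increase on HFD in Dnmt2-/- over Dnmt2+/+ sperm rested on Dnmt2-/- HFD replicate 1: without it the fold change was 0.0021, and without Dnmt2-/- HFD replicate 2 it was 1.22.

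edgeR called 0 of the 30402 features in each of these 5 comparisons, a percentage of 0, at an adjusted p under 0.05. An unadjusted p under 0.05 is reached by a share of about 0.05 of features where nothing differs. At that threshold edgeR found 1292 of the 30402 features for diet in Dnmt2-/- and 2983 in Dnmt2+/+. For genotype it found 2253 on HFD and 644 on ND, and for the interaction 1715. DESeq2 called 78 of 8593, 860 of 17435, 509 of 13309, 3 of 30402 and 42 of 10951 features in that order. Its own filter set the number tested, and tRNA-His-GTG was not among the features called. The scaling moved the median of all features: for diet in Dnmt2+/+ sperm it was -0.13 with TMM and 0.30 with library totals, on the log2 scale. Less this median, the tRNA-His-GTG fold change was -1.05 with TMM and -0.87 with library totals. For diet in Dnmt2-/- sperm the fold change was 0.07 with library totals, and less the median it was -0.26 with TMM and -0.43 with library totals.

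Over 4 libraries against 4, log2 CPM averaged 12.55 ± 0.42 on HFD and 12.73 ± 0.70 on ND (SD), a difference of -0.18 (exact permutation test, two-sided p = 0.657, adjusted 0.947). With read bases 29 and 30 ignored it was -0.34, and edgeR's fold change for diet in Dnmt2-/- sperm was -0.45; neither passed (exact permutation test, adjusted p = 0.857; edgeR, adjusted p = 0.949). It averaged 12.64 ± 0.61 in Dnmt2-/- and 12.64 ± 0.57 in Dnmt2+/+ sperm, a difference of 0.01 (exact permutation test, two-sided p = 1, adjusted 1). Within set C, log2 CPM in the HFD library less that in the ND library was -0.03. For genotype the difference, Dnmt2-/- minus Dnmt2+/+, was -0.87 within set A and 0.74 within set B, of opposite sign.

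The share of starts at -1 gave no difference beyond the spread either. It was 63.6% ± 9.20 on HFD and 66.3% ± 3.86 on ND, a difference of -2.71 points (exact permutation test, two-sided p = 0.686, adjusted 0.947). It was 64.0% ± 9.43 in Dnmt2-/- and 65.8% ± 3.67 in Dnmt2+/+ sperm, a difference of -1.81 points (exact permutation test, two-sided p = 0.8286, adjusted 0.947). Both differences turned positive without Dnmt2-/- HFD replicate 1, at 1.40 points for diet and 2.45 points for genotype. Within sets, the diet difference was 10.2 points in set C, and the genotype difference was -4.66 points in set A and -13.7 points in set B.

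Fragments were 30.9 to 32.7 nt long on average, and 83.2% to 94.2% were 30 to 36 nt long. Ends clustered in the base-paired stem just before the anticodon loop, at bases 30 and 31, and within the loop, at bases 33 and 34. At most 0.424% of fragments reached base 38. Ends at base 31 made up 12.5% to 23.5% of fragments and ends at base 33 made up 6.60% to 23.1%. The share that ended at base 34, the first base of the anticodon, was 43.0% and 16.2% in Dnmt2-/- HFD, 18.6% and 32.2% in Dnmt2+/+ HFD, 12.4% and 7.06% in Dnmt2-/- ND, and 5.49% and 25.8% in Dnmt2+/+ ND. The 3 libraries of set A were the 3 lowest. Ends at base 30 made up 18.1% and 33.1% in Dnmt2-/- HFD, 21.8% and 21.1% in Dnmt2+/+ HFD, 35.4% and 45.9% in Dnmt2-/- ND, and 43.6% and 28.04% in Dnmt2+/+ ND. Here set A held the 3 highest and set B the 3 lowest libraries.

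The share that ended anywhere in the anticodon loop, bases 32 to 38, was 61.9% and 35.04% in Dnmt2-/- HFD, 57.0% and 59.7% in Dnmt2+/+ HFD, 30.4% and 15.7% in Dnmt2-/- ND, and 19.6% and 51.4% in Dnmt2+/+ ND. HFD libraries averaged 53.4% ± 12.4 and ND libraries 29.3% ± 16.02 (SD, n = 4 each), and the diets overlapped. The difference of 24.1 points missed the threshold (exact permutation test, two-sided p = 0.0571, adjusted over 8 tests 0.457). Even the smallest p this test can give, 0.0286, would not pass alone after adjustment over 8 tests. The miss is therefore no sign that the diets are alike. Diet and set cannot be told apart here. Within set C the HFD library, which is Dnmt2-/-, was 16.4 points below the ND library, which is Dnmt2+/+. Without the 3 libraries of set A the difference was 2.0 points, with 1 library left on ND. The microRNAs of the epididymal epithelium moved with the same sets, at 3035 to 3987 CPM in set B and 190 to 412 CPM in set A, and in set C they were at 608 CPM in the HFD and 1914 CPM in the ND library. The part of this epithelial signal in the ends was not tested. Between genotypes, 35.7% ± 19.3 of fragments in Dnmt2-/- and 46.9% ± 18.6 of those in Dnmt2+/+ sperm ended in the loop, a difference of -11.2 points (exact permutation test, two-sided p = 0.429, adjusted 0.947). The sign was the opposite within both sets that hold both genotypes, at 3.44 points in set A and 3.52 points in set B. With 1 library left out the difference ran from -20.3 points without Dnmt2+/+ ND replicate 1 to -4.49 points without Dnmt2-/- ND replicate 2.

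**Figure D4:**
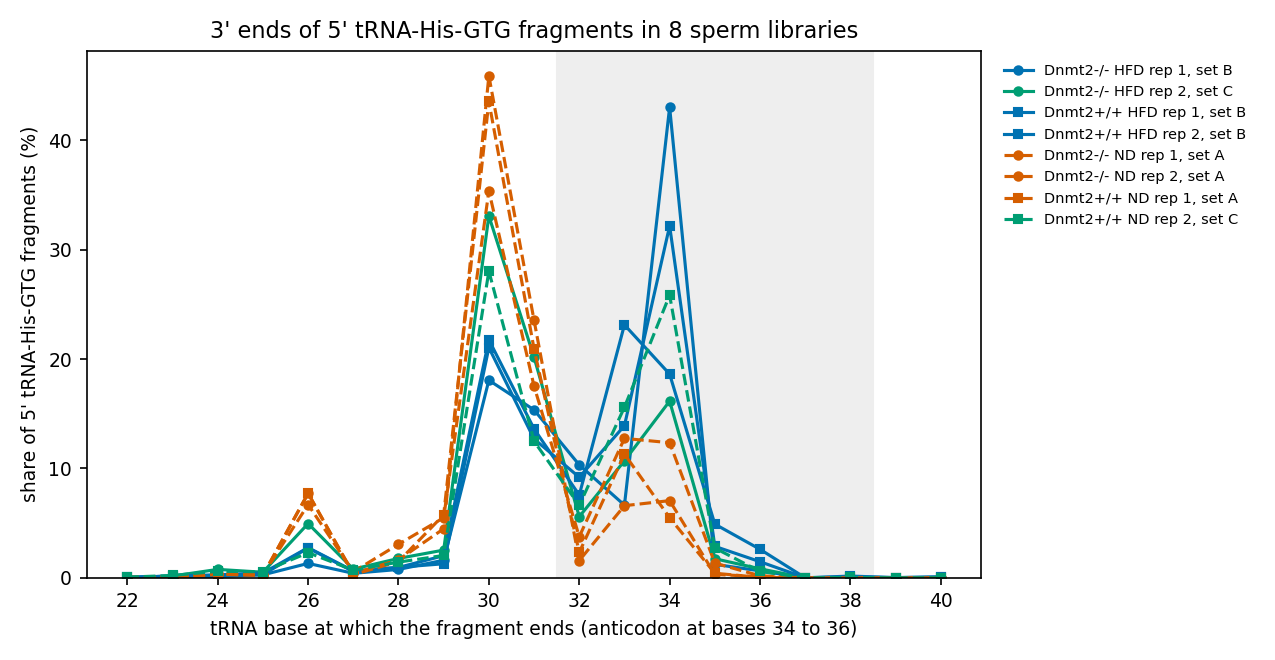
Share of 5' tRNA-His-GTG fragments (%) that end at each tRNA base from 22 to 40, 1 line per library, coloured by sequencing set, solid for HFD and dashed for ND, with round points for Dnmt2-/- and square points for Dnmt2+/+. The shaded band is the anticodon loop; set A libraries peak at base 30, at 35.4% to 45.9%, and the highest point at base 34 is Dnmt2-/- HFD replicate 1, at 43.0%.

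Start and end were related within libraries. With read bases 29 and 30 ignored, fragments with the extra base ended in the loop more often than fragments starting at base 1 in 8 of 8 libraries, by 2.77 to 17.9 points. The loop share was 64.8% for starts at -1 and 60.7% for starts at base 1 in Dnmt2-/- HFD replicate 1, and 63.6% and 45.6% in Dnmt2+/+ HFD replicate 1. Both kinds come from the same libraries, and this difference was found in the data and was not tested.

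The 6 most abundant sequences show where libraries differed and are printed with their extra base and any substitution in capitals.
sequence 1: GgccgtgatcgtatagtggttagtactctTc
sequence 2: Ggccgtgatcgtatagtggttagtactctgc
sequence 3: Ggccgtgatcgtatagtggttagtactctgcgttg
sequence 4: gccgtgatcgtatagtggttagtactctTc
sequence 5: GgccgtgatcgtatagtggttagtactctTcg
sequence 6: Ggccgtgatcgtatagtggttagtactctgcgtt
Sequences 1, 4 and 5 carried G29T, T in place of the tRNA's G with bases counted from base 1 of the tRNA. Sequence 1 had 0.194 and 0.150 CPM in Dnmt2-/- HFD, 0.486 and 0.394 CPM in Dnmt2+/+ HFD, 671 and 1924 CPM in Dnmt2-/- ND, and 2325 and 0.440 CPM in Dnmt2+/+ ND. It was abundant in the 3 libraries of set A and nearly absent from the other 5. Sequence 2, the same fragment without the substitution, had 501 and 865 CPM in Dnmt2-/- HFD, 342 and 406 CPM in Dnmt2+/+ HFD, 210 and 606 CPM in Dnmt2-/- ND, and 767 and 530 CPM in Dnmt2+/+ ND. Sequence 3, which ends at base 34, had 1285 and 461 CPM in Dnmt2-/- HFD, 394 and 803 CPM in Dnmt2+/+ HFD, 103 and 140 CPM in Dnmt2-/- ND, and 159 and 537 CPM in Dnmt2+/+ ND. Its 3 lowest values were those of set A, but these values are not the full level of the fragment. In set A, T was read at base 29 in 73.2% to 75.2% of fragments that start at -1. Such reads count under other sequences, so sequences 2, 3 and 6 undercount their fragments there.

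G29T followed the position in the read, not the base in the tRNA. In set A, T was read at tRNA base 29 in 73.2% to 75.2% of fragments starting at -1, where it is read base 30, and in 99.0% to 99.2% of those starting at base 1, where it is read base 29. For starts at base 2, where it is read base 28, the share was 0.982% to 1.94%, and for starts at base 3, 0.604% to 0.836%. In the other 5 libraries it was at most 0.394% at any start. Other RNAs of set A showed the same read positions: where a G followed a T, the median share of T was 90.8% to 93.6% at read base 29 over 7 or 8 abundant sequences, and 61.6% to 67.0% at read base 30. In the other libraries the median was at most 0.121% at these positions. After another base than T, set A medians were 3.84% to 5.10% at read base 29, over 263 to 337 sequences. At read base 30 they were 1.28% to 1.42%. Set A was defined by T for G at read base 29 in other RNAs, so that position is no separate evidence. The G of tRNA base 29 follows a T, so fragments of this tRNA meet the context of G after T. The substitution uses up the 1 allowed difference in set A.

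**Figure D5:**
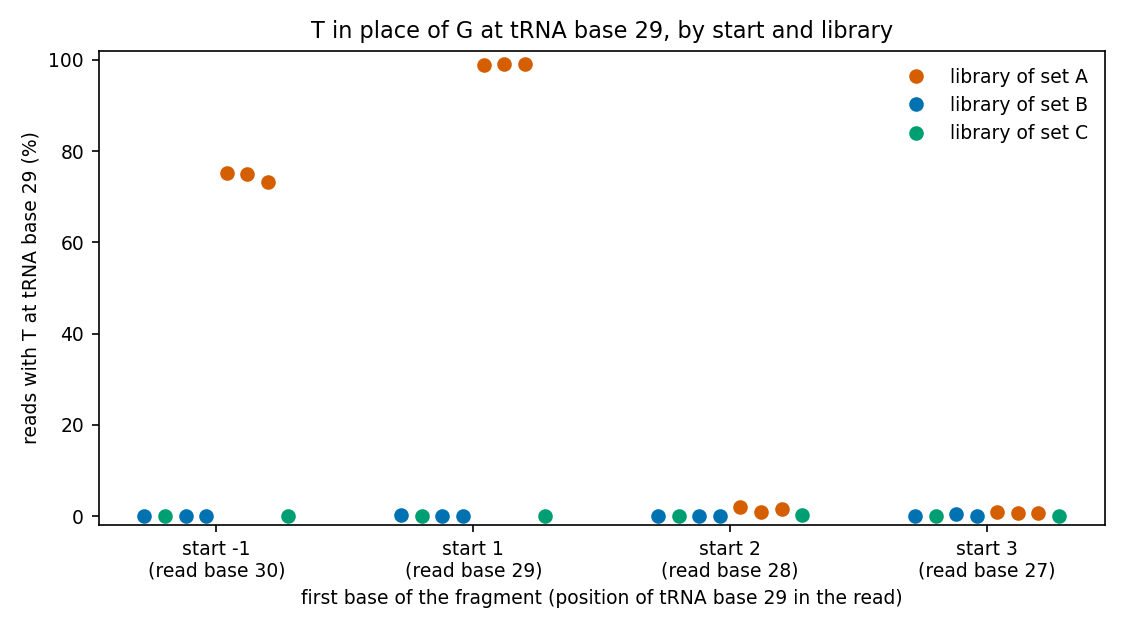
Share of reads (%) with T at tRNA base 29, by the base at which the fragment starts, with the matching position in the read below; each point is 1 of 8 libraries, coloured by sequencing set. Set A lies at 73.2% to 75.2% for starts at -1 and 99.0% to 99.2% for starts at base 1 but at most 1.94% for starts at bases 2 and 3, and sets B and C lie near 0 throughout.

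Over all 8 libraries, the positions most often substituted were base 29 (mean 28.5%), position -1 counted against G (11.3%) and base 35 (5.50%). In set A most fragments already had the 1 allowed substitution at base 29, so the match rule undercounts other substitutions there. At position -1 the set A libraries had 4.19% to 7.16%. Substitutions also gathered at the last base of a fragment. With read bases 29 and 30 ignored, fragments ending at base 31 differed from the tRNA at that base in 14.7% to 17.7% of cases in set B, in 4.43% and 9.15% in set C, and in 3.43% to 5.43% in set A. Fragments running past base 31 differed there in at most 0.698%. The same order of sets, B above C above A, held for the means at bases 32, 33 and 34, with 11.7% in set B, 5.16% in set C and 2.37% in set A at base 34. This pattern was not tested.

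The features whose level was most like that of 5' tRNA-His-GTG across the 8 libraries were found among 280 with at least 100 CPM on average, by Pearson's r of log2(CPM + 1). These libraries share sets and depth, so r is a description only. The first was miR-148a-3p (r = 0.641). The second held reads with the same first 18 bases as fragments starting with G at -1 that the match rule left out (r = 0.627). It is thus no likeness to a separate RNA. The third has no match among the RefSeq mature microRNAs used here (r = 0.615).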

How the data were processed

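Sperm small RNA was sequenced from 8 libraries. The deposited values are raw read counts, 1 per distinct sequence of a library. Adapter trimming was not given in the sources used here. Per the labels, RNA was total RNA, and the submitters' processing notes name the builds mm10 and GRCm38. The libraries of 3T3 cells were not analysed here.

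The tRNA and the lists of markers and tests were chosen with earlier results of these data known. The match sequence came from RefSeq (GRCm38.p6). The 4 comparison tRNAs were found by a motif of 9 bases in their most abundant read and matched over 18 bases; the valine read was also found in RefSeq. Sequences with G at -1 counted as matching, and any other base there as the 1 substitution. The base at -1 was tallied over fragments otherwise without a substitution.

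For the test of level, all other reads were summed by their first 18 bases, low features were dropped by filterByExpr, and the 4 groups were fitted together by the quasi-likelihood test of edgeR 4.0.16 (R 4.3.3) with TMM scaling. Features with a Benjamini-Hochberg adjusted p under 0.05 were called. DESeq2 1.42.0 was an alternative, and the edgeR fit was tested on simulated data. The simulated fold change and spread were fixed values, not estimates from these libraries, so that test does not show the power here. Log2 CPM and shares were compared by exact permutation of 4 against 4 libraries, and tRNAs by exact sign flips over 8 libraries (SciPy 1.17.1). A count of 0 allows up to 3 counts. Figures were drawn with matplotlib 3.10.9.

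Sequencing sets were defined from error rates of sequences with at least 1000 reads: above 100 per 10000 for T in place of G at read base 29 (set A), and above 5 per 10000 for G in place of C at read base 26 (set B). Ignoring read bases 29 and 30 in matching, and leaving out set A, were added after seeing the data. Named were the 4 start classes, the 4 bases at -1, the 6 most abundant sequences, the 3 most frequent ends (bases 30, 34 and 31), the 3 most substituted bases, the 3 features most alike and the 4 comparison tRNAs. Ends at base 33 were added after their values were seen. Libraries of a group differed beyond counting noise (chi-square 36.4 to 455 per feature), and each was counted as 1 sample. Replicate numbers were not treated as pairs in the main tests.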

Additional observations from a re-analysis of the deposited data

Results flagged for a closer look

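Reads that hold genomic leader bases before base 1 of n-THgtg7, which lie outside the fragments described above, were counted in every library. They were recognised by a short run of leader bases, so other extra 5' bases of the same sequence were not told apart. They numbered from 32 reads (3.15 CPM) in Dnmt2+/+ HFD replicate 2 to 288 reads (15.1 CPM) in Dnmt2+/+ ND replicate 1. The 3 libraries of set A had the 3 highest levels, at 8.19 to 15.1 CPM, and the other 5 lay between 3.15 and 7.14 CPM. No control sample for this signal was used here. Of 16 groups of 4 libraries tested for a library far from the others, 0 were marked, where chance marks about 1 in 20.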

How the results depend on the processing

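The excess of an extra base at -1 in tRNA-His-GTG over each of 4 tRNAs kept its direction and passed under every setting run, at 68.0 to 71.3 points when 1 library was left out. No other result passed under any setting run. With no substitution allowed, the level (log2) was 0.92 for diet, -0.34 for genotype and, in edgeR, 1.35 for diet in Dnmt2-/-. Starts at -1 for genotype moved to 1.23 points. This setting drops unequal shares of the libraries. A substitution was carried by 73.5% to 75.5% of fragments in set A, all ND and including both Dnmt2-/- ND libraries, and by 21.7% to 33.1% elsewhere. Per 1000000 reads of 30 to 34 nt, the level was 0.11 for diet and -0.12 for genotype. The edgeR fold change for diet in Dnmt2-/- was 0.065 with library totals and 0.92 with the sequencing set as a term, which gave 2.11 for the interaction. With read bases 29 and 30 ignored, G at -1 for diet was -0.698 points. Within set A, genotype gave -0.87 for level and -5.54 points for G; within set B, 0.74 for level and -13.7 points for starts at -1. Within set C, diet gave 10.2 points for starts at -1, 7.47 for G and -16.4 for loop ends; without set A it gave 5.82 points for G and 2.0 for loop ends. Some of these values reversed the sign of the main result and others changed only its size, and the causes were not tested. With 1 library left out, values ran between -0.43 and 0.061 (level, diet), -0.18 and 0.28 (level, genotype), -5.88 and 1.40 points (starts at -1, diet), -4.83 and 2.45 points (starts at -1, genotype), and -0.635 and 2.75 points (G, diet). In edgeR they ran between -0.99 and 0.30 for diet in Dnmt2-/-, -1.82 and 0.053 for diet in Dnmt2+/+, 0.0021 and 1.22 for genotype on HFD, -0.82 and 1.06 for genotype on ND, and -0.27 and 1.61 for the interaction. Without a filter on low counts edgeR tested 208479 features. It called 144 for diet in Dnmt2-/-, 884 for diet in Dnmt2+/+, and 824 and 47 for genotype on HFD and on ND. For the interaction it called 621, and tRNA-His-GTG was not called in any of these. Deviations of the replicate 1 libraries from their group means correlated weakly between groups (-0.282 to 0.159). Libraries of 1 replicate number were registered in 1 block of records, so the number may also mark a batch, which was not tested. With the replicate block the loop share for diet stayed at 24.1 points (exact permutation p = 0.111). In edgeR the block gave -0.36 for diet in Dnmt2-/- and -0.98 in Dnmt2+/+. Depth left intervals of shares narrow, so the spread between libraries limits the comparisons.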
